A study of Homo sapiens with 21 samples.

Results

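The mucin family members described here are 10 genes: MUC1, MUCL1, MUC3A, MUC4, MUC5AC, MUC5B, MUC12, MUC13, MUC16 and MUC20. They were taken from the raw count table by gene identifier, and 9 of the 10 were matched to a row among the 42339 genes used. MUC4 was not analysed here. The set was chosen by a measured value, the rise of MUCL1 when MUC1 was silenced, so values from that comparison describe the members and carry no test. BT-549 is an established triple-negative breast cancer (TNBC) cell line, and bulk RNA-seq was performed on 21 cultures, with 3 in each of 7 groups. Wild-type BT-549 cells were grown as monolayers in serum-containing medium (2D cells), as mammospheres of serial passage 6 in ultra-low attachment plates (3D cells), and as such mammospheres with 0.75 μM GO-203, a peptide inhibitor of the MUC1-C subunit. The other 4 groups were mammospheres that carry a lentiviral, doxycycline (DOX)-inducible shRNA. Cells with tet-MUC1shRNA (passage 6) or tet-MYCshRNA (passage 8) received 0.1% DMSO as vehicle or 500 ng/ml DOX. A single shRNA was used against each gene, and no DOX-treated control shRNA culture is among these libraries, so the effect of DOX itself cannot be told apart from that of silencing. The sources used here do not say whether the 3 cultures of a group were grown independently, so that a p-value measures the spread between these samples.

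Mucins are heavily O-glycosylated proteins of epithelial surfaces. The gel-forming members (MUC5AC and MUC5B) are secreted and build mucus, whereas the membrane-bound members (MUC1, MUC3A, MUC4, MUC12, MUC13, MUC16 and MUC20) line the apical side of the cell. MUC1 is cleaved into an extracellular N-terminal subunit and a membrane-spanning C-terminal subunit (MUC1-C) with a signalling cytoplasmic tail, and it is often overexpressed in breast carcinomas. MUC16 carries the tumor antigen CA125. MUCL1, also called small breast epithelial mucin, is a short secreted mucin-like glycoprotein of the mammary and salivary glands that is used as a breast cancer marker.

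The promoters of the 4 members on which most of the results turn are shown, so that their start regions can be compared. Each is the 250 bases before the transcription start from RefSeq (GRCh38.p14), which had an entry for 7 of the 10 members. Capitals mark matches on either strand to 5 motifs. The E-box that MYC binds was searched as CACGTG, and the E-box that the repressor ZEB1 binds as CACCTG. The core promoter element near many start sites, the TATA box, was searched with the letters TATAAA. The box that SP1 binds, called the GC box, was searched as GGGCGG, and the site of STAT factors as TTCNNNGAA. MUC1 lies at chr1:155192916-155193165 (minus strand), MUCL1 at chr12:54854266-54854515 (plus), MUC13 at chr3:124934752-124935001 (minus) and MUC16 at chr19:9010410-9010659 (minus).
MUC1: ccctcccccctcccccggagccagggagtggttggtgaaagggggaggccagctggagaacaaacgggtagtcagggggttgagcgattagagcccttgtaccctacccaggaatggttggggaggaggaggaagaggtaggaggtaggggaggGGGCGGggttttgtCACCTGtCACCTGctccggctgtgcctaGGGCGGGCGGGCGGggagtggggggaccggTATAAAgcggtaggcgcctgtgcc
MUCL1: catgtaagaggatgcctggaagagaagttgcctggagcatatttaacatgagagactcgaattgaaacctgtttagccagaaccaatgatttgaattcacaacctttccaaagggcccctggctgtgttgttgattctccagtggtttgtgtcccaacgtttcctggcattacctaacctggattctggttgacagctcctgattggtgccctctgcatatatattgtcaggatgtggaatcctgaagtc
MUC13: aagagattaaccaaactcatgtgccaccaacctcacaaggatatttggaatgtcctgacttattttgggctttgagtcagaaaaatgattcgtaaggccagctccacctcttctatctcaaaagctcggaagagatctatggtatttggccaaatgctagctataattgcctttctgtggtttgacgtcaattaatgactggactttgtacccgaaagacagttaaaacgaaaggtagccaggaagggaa
MUC16: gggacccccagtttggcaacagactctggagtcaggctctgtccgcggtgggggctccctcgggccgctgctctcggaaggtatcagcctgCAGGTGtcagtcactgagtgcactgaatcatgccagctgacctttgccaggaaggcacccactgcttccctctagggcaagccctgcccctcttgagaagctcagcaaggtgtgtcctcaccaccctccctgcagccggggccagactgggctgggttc

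The MUC1 window held 2 ZEB1-type E-boxes (at 82 and 75 bases before the start), 1 TATA box at 24 bases, and 4 GC boxes, 3 of which overlap each other. The MUC16 window held 1 ZEB1-type E-box, read on the opposite strand, at 159 bases. The MUCL1 and MUC13 windows held none of the 5 motifs, which says only that these letters were not in these 250 bases. Among 35091 promoters of the same length, the ZEB1-type E-box was found in 17.5%, the TATA box in 10.7%, the GC box in 42.6%, the MYC-type E-box in 6.34% and the STAT site in 6.57%.

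The libraries held between 38026597 and 99751717 counts. Levels are given as CPM, the counts relative to library size, scaled with TMM factors over the 21 libraries. Of all counts between 1 and 10, 70.4% were even numbers, as arises when the 2 mates of a read pair are each counted. A floor of 6 counts per library (3 read pairs) was therefore used, and ratios of low counts have intervals in which mates are taken as 1 pair. Such intervals and floors cover counting error only. In bulk samples, fewer cells that transcribe a gene and less RNA in each such cell cannot be told apart.

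MUC1 was counted in every library, with the highest level in 3D cells treated with GO-203 and the lowest in DOX-treated tet-MUC1shRNA mammospheres. MUC1 (ENSG00000185499.16) lies on the minus strand of chromosome 1 from 155185824 to 155192916. In 2D cells, MUC1 was at 51.9, 56.3 and 53.9 CPM, compared with 217, 222 and 182 CPM in 3D cells. GO-203-treated 3D cells had 257, 264 and 244 CPM. All 3D libraries were above all 2D libraries, and all GO-203 libraries were above all 3D libraries. Vehicle-treated tet-MUC1shRNA mammospheres had 101, 83.2 and 86.6 CPM of MUC1, and their DOX-treated counterparts had 19.7, 21.2 and 23.3 CPM. Vehicle-treated tet-MYCshRNA mammospheres had 66.5, 67.1 and 73.4 CPM, whereas those with DOX had 139, 194 and 167 CPM. In descending order of mean, the groups were GO-203 (255 ± 10.2, SD, n = 3), 3D (207 ± 21.8), tet-MYCshRNA with DOX (167 ± 27.7), tet-MUC1shRNA with vehicle (90.4 ± 9.64), tet-MYCshRNA with vehicle (69.0 ± 3.84), 2D (54.1 ± 2.19) and tet-MUC1shRNA with DOX (21.4 ± 1.81). Only the neighbours 3D and tet-MYCshRNA with DOX overlapped in this order.

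**Figure D1:**
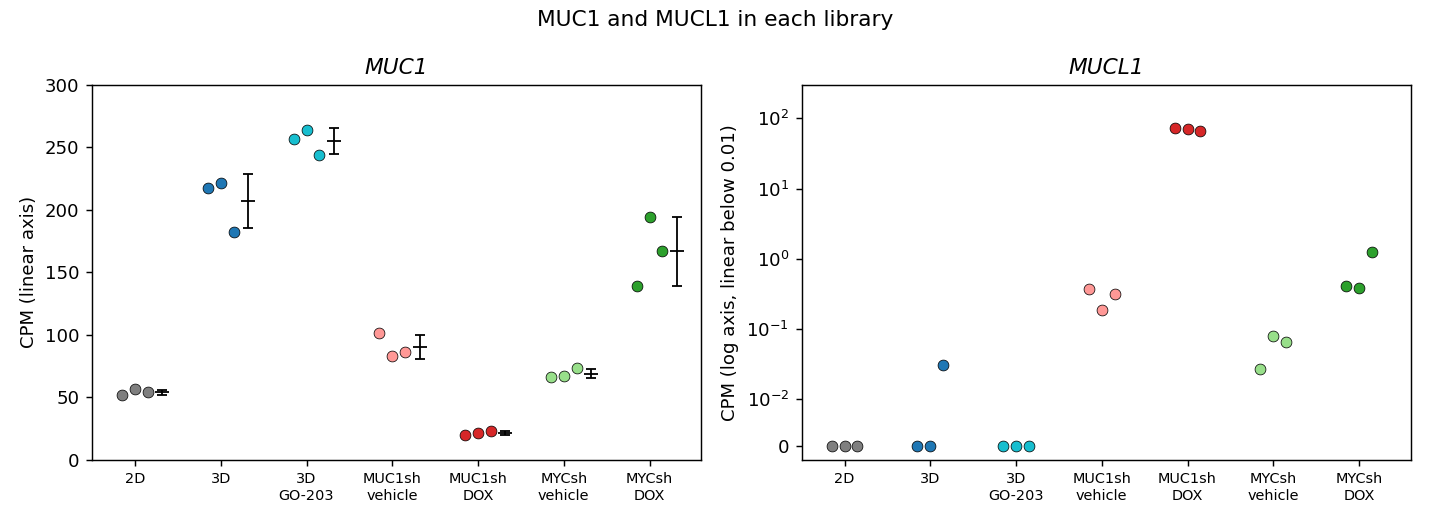
MUC1 (left, linear axis) and MUCL1 (right, log axis that is linear below 0.01) in CPM, with 1 point per library in each of the 7 groups; black bars in the MUC1 panel are the mean and SD of 3 libraries. MUC1 is lowest in the tet-MUC1shRNA libraries with DOX (19.7 to 23.3 CPM), where MUCL1 is highest (66.7 to 74.1 CPM).

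MUC1 transcripts rose 3D vs. 2D, by 1.93 on the log2 scale (standard error 0.08, adjusted p = 1.8e-12 in edgeR's quasi-likelihood test). GO-203 treatment was associated with a further, smaller rise of 0.33 on the log2 scale (standard error 0.07, adjusted p = 0.00191 in edgeR's test). In the tet-MYCshRNA line, MUC1 rose with DOX by 1.25 on the log2 scale (standard error 0.11, adjusted p = 5.1e-06 in edgeR's test). The targeted MYC transcript fell by 0.62 on the log2 scale (standard error 0.08, edgeR adjusted p = 9.1e-05), from 386 to 439 CPM with vehicle down to 244 to 297 CPM with DOX. MYC, a transcription factor that drives growth programs, had been higher in 3D than in 2D cells by 2.76 on the log2 scale (standard error 0.06, edgeR adjusted p = 2.1e-15). MYC and MUC1 thus both rose 3D vs. 2D and moved in opposite directions on MYC silencing.

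MUC1 was lower in both vehicle-treated shRNA lines than in 3D cells, before any DOX was given. The log2 difference was -1.20 in tet-MUC1shRNA (standard error 0.08, edgeR adjusted p = 2.5e-09) and -1.60 in tet-MYCshRNA (standard error 0.07, edgeR adjusted p = 1.4e-10). Line, transduction, DMSO and (in tet-MYCshRNA) passage cannot be told apart in these differences, and both use the same 3D libraries, which also stand in the 2D and GO-203 comparisons. With DOX, MUC1 in the tet-MYCshRNA mammospheres (139 to 194 CPM) reached values that overlap those of 3D cells (182 to 222 CPM).

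MUCL1 (ENSG00000172551.11, plus strand of chromosome 12 from 54830518 to 54896008) was near 0 in all groups except DOX-treated tet-MUC1shRNA mammospheres. Those 3 libraries had 4185, 5151 and 2936 counts of MUCL1, or 74.1, 71.8 and 66.7 CPM. The vehicle-treated libraries of the same line had 14, 8 and 16 counts. MUCL1 had no count in the 3 libraries of 2D cells or in the 3 of GO-203-treated cells, and 0, 0 and 2 counts in 3D cells. In the tet-MYCshRNA line, vehicle-treated libraries had 2, 8 and 4 counts and DOX-treated libraries 20, 22 and 80. Both silenced groups were therefore above their vehicle groups with no overlap, but at very different levels (70.8 ± 3.80 and 0.682 ± 0.504 CPM, SD, n = 3). The order below the DOX-treated tet-MUC1shRNA group was tet-MYCshRNA with DOX, then tet-MUC1shRNA with vehicle (0.290 CPM) and tet-MYCshRNA with vehicle (0.0569 CPM). DOX-treated tet-MUC1shRNA, tet-MYCshRNA with DOX and tet-MUC1shRNA with vehicle did not overlap with their neighbours in this order. By contrast, tet-MYCshRNA with vehicle overlapped with 3D cells.

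Silencing of MUC1 was the comparison that selected the members, and its values are given without a test. The log2 fold change was 7.95 for MUCL1 (standard error 0.12) and -2.06 for MUC1, the target of the shRNA (standard error 0.07). Per kilobase of its canonical transcript (485 bases), MUCL1 was at 146 ± 7.83 CPM per kb in the DOX-treated tet-MUC1shRNA libraries (SD, n = 3). MUC1, with a canonical transcript of 1811 bases, was at 11.8 ± 1.0 CPM per kb in the same libraries. With all exons of each gene as its length (3971 and 2401 bases), the levels were 17.8 and 8.91 CPM per kb, so MUCL1 was the higher of the pair by either length. In the vehicle-treated libraries the order was the reverse, at 0.597 CPM per kb for MUCL1 and 49.9 CPM per kb for MUC1 by canonical transcript.

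On MYC silencing, MUCL1 had 122 counts in all with DOX and 14 with vehicle, and the ratio of read pairs was 12.1 (95% interval 5.54 to 31.4). It passed the low-count filter only through the DOX-treated group, and its fitted rise on the log2 scale came to 3.50 (standard error 0.64, adjusted p = 0.00101 in edgeR's test). Replicate 3 of the DOX-treated libraries had the highest count, 80. Without it the log2 fold change was 2.702 (edgeR adjusted p = 0.00588). Between vehicle-treated tet-MUC1shRNA mammospheres and 3D cells, MUCL1 had 38 against 2 counts in all and did not pass the low-count filter. The ratio of its read pairs was 23.7 (95% interval 3.76 to 983).

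MUC13, a membrane-bound mucin of the gastrointestinal tract, was present at low counts in both shRNA lines and was nearly lost on MYC silencing. The 3 vehicle-treated tet-MYCshRNA libraries had 36, 34 and 36 counts of MUC13 (ENSG00000173702.7, chromosome 3 from 124905442 to 124953819), and the DOX-treated libraries had 0, 0 and 2. The ratio of read pairs, vehicle over DOX, was 38.1 (95% interval 6.55 to 1532). MUC13 passed the low-count filter only through the vehicle group, with an adjusted p of 2.9e-04 in edgeR's test. Both DOX counts are from replicate 3, without which the DOX-treated libraries held none. In 3D cells MUC13 had 2, 0 and 4 counts, in 2D cells 0, 2 and 0, and with GO-203 2, 0 and 0. Compared with 3D cells, vehicle-treated tet-MYCshRNA mammospheres had 106 against 6 counts in all, a ratio of read pairs of 12.2 (95% interval 3.95 to 60.9). The fitted log2 difference was 3.60 (standard error 0.65, edgeR adjusted p = 3.9e-04), for a gene that passed the filter only through the tet-MYCshRNA libraries. Without replicate 3 of the 3D cells, which held 4 of their 6 counts, this difference was 4.38 (edgeR adjusted p = 0.00173). In the tet-MUC1shRNA line, MUC13 had 18, 8 and 12 counts with vehicle and 18, 35 and 24 with DOX, and these CPM values overlapped (log2 fold change 0.63, standard error 0.45). MUC13 and MUCL1 therefore moved in opposite directions on MYC silencing, MUC13 down and MUCL1 up.

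MUC16 was counted in 2D cells and lost in 3D cells. It lies on the minus strand of chromosome 19 from 8848844 to 9010390 (ENSG00000181143.15) and has the longest canonical transcript of the members, at 43816 bases. The 2D libraries had 53, 73 and 81 counts of MUC16, at 1.28 ± 0.105 CPM (SD, n = 3), whereas all 3D libraries had 0. Taking the floor of 6 counts in each 3D library, MUC16 was at least 11.4-fold higher in 2D cells. It passed the low-count filter only through the 2D libraries, with an adjusted p of 8.1e-08 in edgeR's test. The table gives MUC16 no value in GO-203-treated libraries, which is read as 0. In the shRNA lines it was at 1, 0 and 2 counts (tet-MUC1shRNA with vehicle), 6, 6 and 2 (with DOX), 2, 0 and 0 (tet-MYCshRNA with vehicle) and 4, 0 and 0 (with DOX). These values are at or under the floor, and no fold is given for them. E-cadherin (CDH1), the epithelial adhesion protein, had a like distribution between these cultures, with 67, 87 and 74 counts in 2D cells and 0, 0 and 0 in 3D cells.

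**Figure D2:**
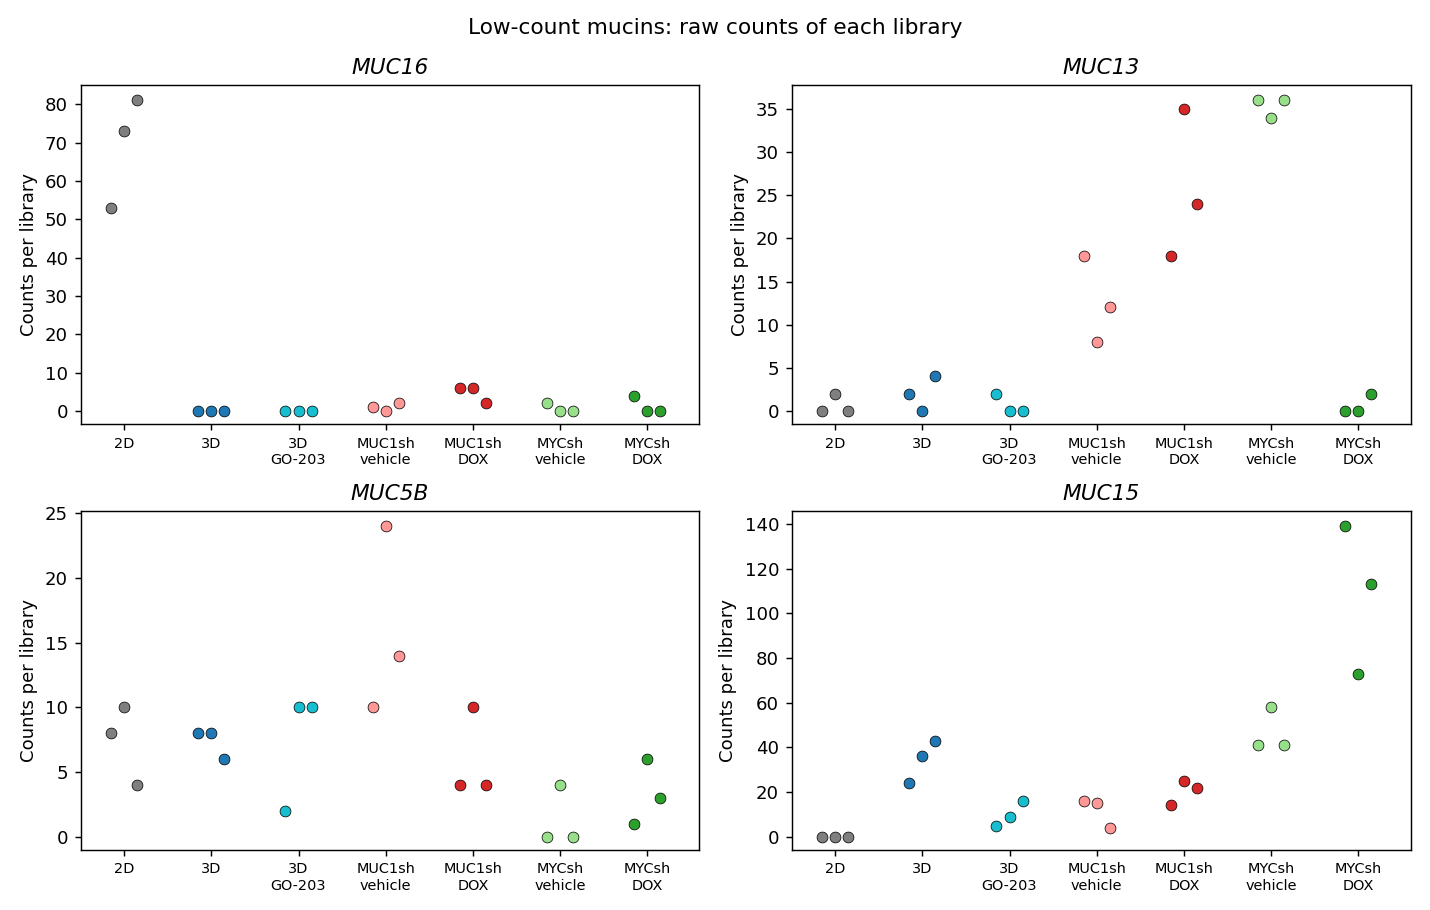
Raw counts of MUC16, MUC13, MUC5B and the further mucin MUC15 in each library (vertical axes), with 1 point per library in the 7 groups (horizontal axes). MUC16 is highest in 2D cells (53 to 81 counts), MUC13 drops from 34 to 36 counts to at most 2 in the tet-MYCshRNA line, and MUC15 is at 0 in 2D cells.

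MUC5B, a gel-forming mucin of the airway (ENSG00000117983.17, chromosome 11 from 1223066 to 1262172), was low in every group. Vehicle-treated tet-MUC1shRNA libraries had its highest counts, at 10, 24 and 14, and those with DOX had 4, 10 and 4. The CPM values of these groups did not overlap (log2 fold change -1.79, standard error 0.54, a description). Compared with 3D cells (8, 8 and 6 counts), MUC5B was higher in the vehicle-treated tet-MUC1shRNA libraries, by 1.41 on the log2 scale (standard error 0.53, edgeR adjusted p = 0.0334), having passed the low-count filter only through that group. That difference did not pass without replicate 2 of the vehicle group (0.96, edgeR adjusted p = 0.244) or without replicate 3 of the 3D cells (1.15, edgeR adjusted p = 0.132). In the other groups MUC5B had between 0 and 10 counts. An antisense gene overlaps 2.33% of its exon bases.

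The remaining members were at the edge of detection. MUC12, a membrane-bound mucin of the colon (chromosome 7 from 100969565 to 101018939), had 13, 6 and 8 counts in 3D cells and 0, 0 and 0 with GO-203. With the floor in the GO-203 libraries, MUC12 was at least 1.31-fold higher in 3D cells, and it did not pass the filter for a test. MUC12 had 6, 13 and 4 counts in 2D cells and 0 to 4 counts in the 12 shRNA libraries. Its neighbour MUC3A had 0 to 10 counts per library, with the highest level in vehicle-treated tet-MUC1shRNA mammospheres (7, 8 and 7 counts). MUC5AC had at most 4 counts and MUC20 at most 2 in any library. For MUC20, 27.1% of exon bases are shared with MUC20-OT1 on the same strand, so that its reads can be split between the genes.

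Counting members against all genes tested, 1 rose (MUC1) and 1 fell (MUC16) 3D vs. 2D of 2 that passed the filter, where 63.7% of 19190 genes passed the test. With GO-203, the 1 member tested, MUC1, rose, against 24.1% of 18488 genes. On MYC silencing, MUC1 and MUCL1 rose and MUC13 fell, which are all 3 tested, against 58.5% of 19951 genes. In vehicle-treated tet-MUC1shRNA mammospheres vs. 3D cells, MUC5B was higher and MUC1 lower of 2 tested, against 62.6% of genes, and in vehicle-treated tet-MYCshRNA mammospheres MUC13 was higher and MUC1 lower of 2 tested, against 47.5%. On MUC1 silencing, 3 of 4 members that passed the filter had groups that did not overlap (MUCL1 higher, MUC1 and MUC5B lower), where 62.8% of 19220 genes did. MUC5B, MUC13, MUC16 and MUCL1 passed the filter only through groups where they were high, so these counts are not evidence of change in the family.

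**Figure D3:**
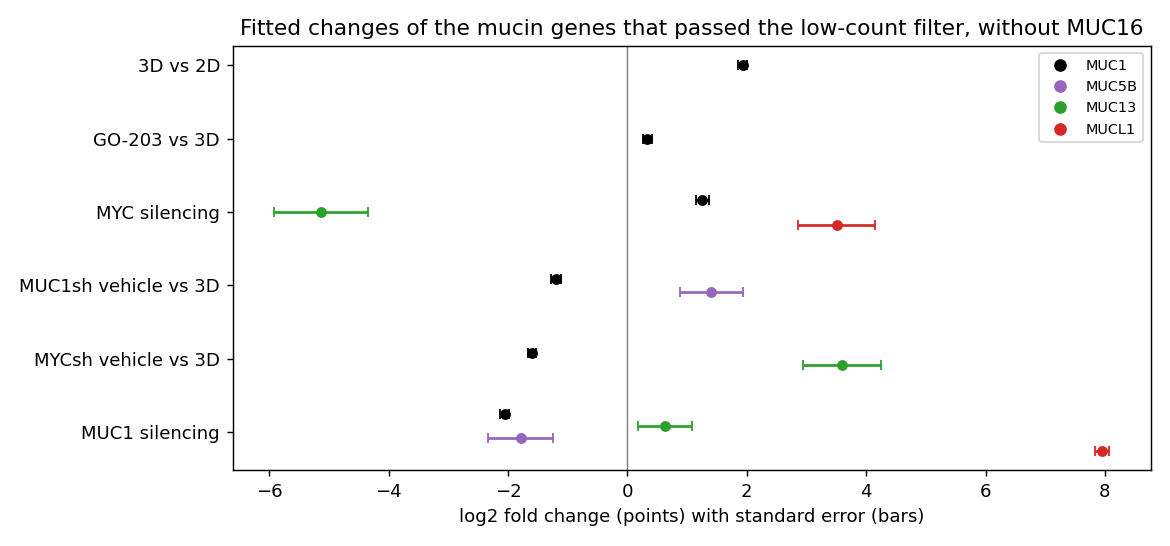
Log2 fold change (points, horizontal axis) with standard error (bars) of MUC1, MUC5B, MUC13 and MUCL1 in each of 6 comparisons where the gene passed the low-count filter; MUC16 is left out because 3D cells had no count of it. MUC1 lies above 0 in 3D, GO-203 and MYC silencing (1.93, 0.33 and 1.25) and below 0 in the other 3 comparisons.

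The genes whose levels followed those of MUC1 most closely over the 21 libraries were PLXND1, a semaphorin receptor (Pearson's r = 0.981), PRRC2B (0.974), MFF, a receptor for mitochondrial fission (0.971), CDON, a cell surface co-receptor of Hedgehog signalling (0.955), and PRKCA, a protein kinase C (0.945). These r values are a description among 12293 genes compared, over libraries that share groups. PLXND1 averaged 5.84 ± 1.17 CPM in monolayers and 37.9 ± 2.46 in 3D cells (SD, n = 3). In the tet-MUC1shRNA line, PLXND1 was at 17.4 ± 2.15 CPM with vehicle and 1.84 ± 0.310 with DOX. In the tet-MYCshRNA line, it went from 7.60 ± 0.319 to 29.8 ± 8.16 CPM. PLXND1 differed from MUC1 with GO-203, where its change of -0.08 (standard error 0.06) did not pass edgeR's test (adjusted p = 0.470).

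The genes closest to MUCL1 were ITGA2, the collagen-binding integrin subunit (r = 0.985), ZP4, a zona pellucida glycoprotein (0.975), the growth factor BMP6 (0.972), RASAL2, a Ras GTPase-activating protein (0.964), and the tetraspanin TSPAN1 (0.958). These r values rest on the 3 DOX-treated tet-MUC1shRNA libraries, where each of these genes was highest. ITGA2 was at 12.7 ± 0.203 CPM in that group and at means of 0.516 to 0.939 CPM in the other 6. ZP4 was at 26.1 ± 0.910 CPM, compared with 1.45 ± 0.441 in the vehicle-treated libraries. Unlike MUCL1, BMP6 fell by 1.30 on the log2 scale on MYC silencing (standard error 0.29, edgeR adjusted p = 0.00373).

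Genes beside MUC1 did not follow it in all comparisons. TRIM46, a microtubule-organizing protein whose gene lies 853 bases from MUC1, fell on MUC1 silencing (log2 fold change -0.80, standard error 0.09, edgeR adjusted p = 9.3e-08) but also fell 3D vs. 2D (-0.25, standard error 0.08, edgeR adjusted p = 0.0128). THBS3, a thrombospondin gene 2672 bases on the other side, rose on MYC silencing by 1.19 (standard error 0.10, edgeR adjusted p = 5.0e-06), close to the 1.25 of MUC1. On MUC1 silencing THBS3 rose by 0.36 (standard error 0.05, edgeR adjusted p = 4.0e-06). Beside MUCL1, the lymphocyte gene TESPA1 at 52007 bases had 9, 15 and 1 counts in DOX-treated tet-MUC1shRNA libraries and 0 in the other 18. ITGB5, an integrin subunit 4024 bases from MUC13, rose by 2.43 on MUC1 silencing (standard error 0.06, edgeR adjusted p = 7.2e-18) and did not pass on MYC silencing (0.13, edgeR adjusted p = 0.321), where MUC13 was nearly lost. Without replicate 1 of the DOX-treated tet-MYCshRNA libraries it passed there, at 0.23 (edgeR adjusted p = 0.0113).

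Among 17 further mucins and sialomucins, 12 have a row and 7 passed the filter. Of these 7, 1 rose and 4 fell 3D vs. 2D, 2 rose and 2 fell on MUC1 silencing, 2 rose and 2 fell with GO-203, and 4 rose and 1 fell on MYC silencing. For all genes tested, the shares that rose and fell were 32% and 31.7% 3D vs. 2D, 30.7% and 31.6% on MUC1 silencing (62.2% together), 11.1% and 12.9% with GO-203, and 30.3% and 28.1% on MYC silencing. The median log2 fold change of the 7 was -0.22, -0.08, 0.13 and 0.59 in that order, and the medians of all genes were between -0.01 and 0.02.

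MUC15, a membrane-bound mucin, was at 0 counts in the 2D libraries and at 24, 36 and 43 in 3D cells. It passed the low-count filter only through the 3D libraries, with an adjusted p of 3.7e-06 in edgeR's test. With GO-203 it had 5, 9 and 16 counts, a fall of 1.55 on the log2 scale (standard error 0.45, edgeR adjusted p = 0.0175). In that comparison, too, MUC15 passed the filter only through the 3D libraries. On MYC silencing MUC15 went from 41, 58 and 41 counts to 139, 73 and 113, a log2 change of 1.69 (standard error 0.31, edgeR adjusted p = 0.00101). MUC15 thus was higher, as MUC1 was, in 3D cells and on MYC silencing and fell where MUC1 rose with GO-203. On MUC1 silencing, where MUC1 fell, the log2 fold change of MUC15 was 0.41 and did not pass (edgeR adjusted p = 0.530). MCAM (MUC18), an adhesion molecule of melanoma and endothelium, fell 3D vs. 2D from 23.5 ± 5.45 to 1.37 ± 0.314 CPM (SD, n = 3, log2 fold change -4.11). On MUC1 silencing MCAM rose from 0.590 ± 0.161 to 11.1 ± 0.821 CPM, a log2 change of 4.27 (standard error 0.17, edgeR adjusted p = 1.4e-14). The sialomucin PODXL fell by 2.14 on the log2 scale 3D vs. 2D (standard error 0.11, edgeR adjusted p = 7.6e-11). HEG1, the mucin-like receptor next to MUC13, rose by 0.90 on MYC silencing (standard error 0.06, edgeR adjusted p = 9.5e-07).

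O-glycosylation of mucins begins with N-acetylgalactosaminyltransferases (GALNTs), of which 19 of 20 have a row. Between 3D and 2D cells, 4 of 11 tested rose and 6 fell (median log2 fold change -0.45). GALNT16 fell by 3.04 on the log2 scale (standard error 0.08, edgeR adjusted p = 1.0e-14) and GALNT13 rose by 1.37 (standard error 0.17, edgeR adjusted p = 3.5e-06). On MUC1 silencing, 4 of 13 rose and 4 fell (median 0.02). GALNT10 rose from 104 ± 2.98 to 293 ± 9.82 CPM (SD, n = 3), a log2 change of 1.51 (SE 0.04, edgeR adjusted p = 7.8e-17). On MYC silencing, 5 of 12 rose and 4 fell (median 0.04), and GALNT13 fell by 1.09 on the log2 scale (standard error 0.09, edgeR adjusted p = 3.8e-06). With GO-203, none of 12 GALNTs passed edgeR's test at the adjusted threshold of 0.1, with 0 at an unadjusted p under 0.05 and 0 past the adjusted threshold with DESeq2.

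Enzymes that extend or cap O-glycans all have a row (20), and 13 passed the filter in each of the 4 comparisons. In 3D cells 6 rose and 5 fell (median log2 fold change 0.02), on MUC1 silencing 5 rose and 4 fell (0.03), with GO-203 3 rose and 1 fell (-0.04) and on MYC silencing 3 rose and 3 fell (-0.06). GCNT1, which builds core 2 branches, averaged 18.0 ± 2.34 CPM in monolayers and 4.14 ± 0.694 in 3D cells (SD, n = 3, log2 fold change -2.13, edgeR adjusted p = 1.1e-09). On MUC1 silencing GCNT1 rose from 2.96 ± 0.663 to 19.0 ± 0.446 CPM (log2 fold change 2.69, standard error 0.12, edgeR adjusted p = 7.8e-14). The sialyltransferase ST6GALNAC3 fell by 4.84 on the log2 scale 3D vs. 2D (standard error 0.11, edgeR adjusted p = 1.3e-15) and rose by 1.99 on MYC silencing (standard error 0.13, edgeR adjusted p = 7.7e-07). ST3GAL1, which caps core 1 with sialic acid, fell by 0.74 on MUC1 silencing (standard error 0.06, edgeR adjusted p = 1.4e-09) and fell by 0.71 on MYC silencing (standard error 0.08, edgeR adjusted p = 2.3e-05). B4GALT1, a galactosyltransferase, rose in all 3 treatment comparisons, by 0.90 (MUC1 silencing), 0.24 (GO-203) and 0.42 (MYC silencing).

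**Figure D4:**
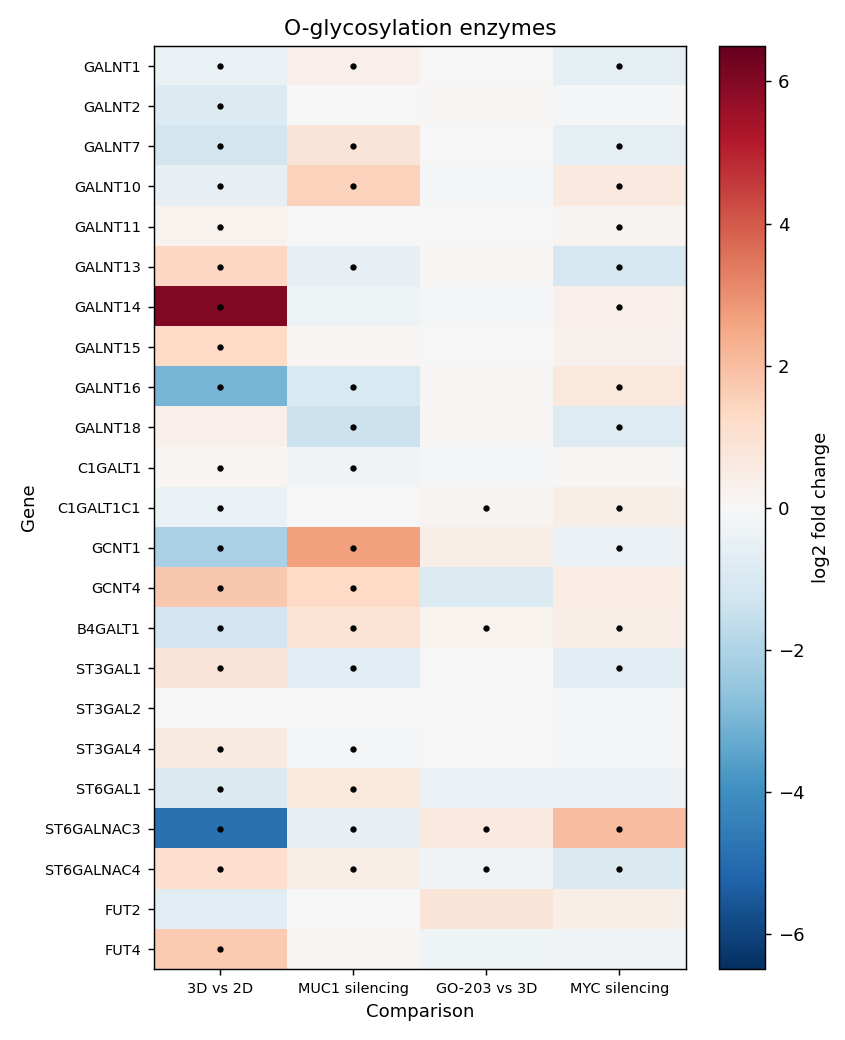
Log2 fold change (colour, from -6.5 to 6.5) of the 23 O-glycosylation enzymes tested in all 4 comparisons (columns), with genes in rows and a dot where the adjusted p of edgeR's test is below 0.1. GCNT1 and GALNT10 are lower in 3D than in 2D cells and higher on MUC1 silencing; the 2D libraries held 0, 0 and 1 counts of GALNT14, so its first cell depends on the fit.

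Proteins that shed, bind or signal with MUC1 were all tested (16). In 3D cells 5 rose and 7 fell (median log2 fold change -0.01), on MUC1 silencing 8 rose and 6 fell (0.09), with GO-203 3 rose and 4 fell (0.01) and on MYC silencing 9 rose and 3 fell (0.32). LGALS3 (galectin-3), a lectin that binds MUC1, averaged 47.6 ± 4.76 CPM in monolayers and 545 ± 31.7 in 3D cells (SD, n = 3), a log2 change of 3.51 (standard error 0.08, edgeR adjusted p = 8.9e-16). LGALS3 fell by 1.43 on MUC1 silencing (standard error 0.07, edgeR adjusted p = 2.5e-13), and rose with GO-203 by 0.24 (standard error 0.05, edgeR adjusted p = 0.00259) and on MYC silencing by 0.98 (standard error 0.07, edgeR adjusted p = 1.8e-06). Its direction matched that of MUC1 in these 4 comparisons and in vehicle-treated tet-MYCshRNA mammospheres vs. 3D cells (-0.42, edgeR adjusted p = 7.1e-06), but in the vehicle-treated tet-MUC1shRNA line LGALS3 was higher than in 3D cells (0.33, edgeR adjusted p = 5.6e-04) and MUC1 lower. The comparisons with 3D cells share libraries. MMP14, a membrane protease that can shed MUC1, had the direction opposite to MUC1 in each of these 6: -1.87 in 3D cells, 1.21 on MUC1 silencing, -0.51 with GO-203, -0.57 on MYC silencing, and 1.80 and 2.18 in the vehicle-treated tet-MUC1shRNA and tet-MYCshRNA lines vs. 3D cells, all past edgeR's test. The receptor MET was likewise opposite to MUC1 in all 6, each past edgeR's test. It rose on MUC1 silencing by 0.56 and fell by 0.65 with GO-203 and by 0.53 on MYC silencing. Its difference was -0.19 3D vs. 2D, and 1.51 and 1.89 in the vehicle-treated tet-MUC1shRNA and tet-MYCshRNA lines vs. 3D cells. The share of all genes with such a pattern was not counted.

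Regulators of mucin genes and secretory cells have 13 rows, and 4 to 7 passed the filter. In 3D cells 2 of 6 rose and 2 fell (median log2 fold change -0.05), on MUC1 silencing 5 of 7 rose and 1 fell (0.94), with GO-203 3 of 6 rose (0.70) and on MYC silencing 3 of 4 rose (1.11). Of all genes tested, 32%, 30.7%, 11.1% and 30.3% rose in that order. Several that rose had low mean counts: GATA3, FOXA1 and FOXA3 on MUC1 silencing (19.3 to 21.3), ELF3 and EHF with GO-203 (26.7 and 48.7) and EHF on MYC silencing (33). CREB3L1, a transcription factor of the secretory pathway, averaged 193 ± 15.3 CPM in monolayers and 6.79 ± 0.435 in 3D cells (SD, n = 3, log2 fold change -4.83, edgeR adjusted p = 7.1e-17). It fell by 3.20 on MUC1 silencing (standard error 0.11, edgeR adjusted p = 1.1e-15) and rose on MYC silencing by 1.11 (standard error 0.12, edgeR adjusted p = 3.2e-05). KLF4, a factor for goblet cell differentiation and stemness, rose in 3D cells by 0.93 (standard error 0.08, edgeR adjusted p = 7.6e-08) and on MYC silencing by 1.95 (standard error 0.07, edgeR adjusted p = 1.2e-08). With GO-203 its log2 fold change was 0.02 (edgeR adjusted p = 0.870), and on MUC1 silencing, where MUC1 fell, KLF4 rose by 0.17 (edgeR adjusted p = 0.0193). The latter did not pass without replicate 3 of the vehicle group (0.11, edgeR adjusted p = 0.127) or replicate 2 of the DOX group (0.14, edgeR adjusted p = 0.105). KLF4 thus did not follow MUC1 in all comparisons. EHF, an epithelial ETS factor, rose on MUC1 silencing by 0.96 (standard error 0.16, edgeR adjusted p = 3.1e-05).

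Marker genes were examined beside MUCL1, which is a product of secretory breast epithelium. SCGB2A2 (mammaglobin), the secretoglobin most used as a breast marker, had 18, 58 and 22 counts in DOX-treated tet-MUC1shRNA libraries, 0 in those with vehicle, and at most 2 in any other library. It passed the low-count filter only through these DOX-treated libraries (edgeR adjusted p = 4.2e-06). Its partner SCGB1D2 had 8, 6 and 2 counts there and 0 in the other 18 libraries. LTF (lactoferrin), a milk protein, had 64, 66 and 44 counts with DOX and 26, 10 and 18 with vehicle in this line, whereas on MYC silencing it had 18, 26 and 16 counts with vehicle and 12, 24 and 20 with DOX. The secretory genes AZGP1, ANKRD30A, CSN1S1, CSN2, CSN3 and LALBA had at most 4 counts in any library. The 11 luminal epithelial markers summed to 83.6 to 91.4 CPM with DOX and 21.2 to 26.3 with vehicle. Of 8 tested, 6 rose, against 30.7% of all genes. KRT7 took most of these sums, with means of 82.9 CPM with DOX and 22.3 with vehicle, and rose by 1.92 on the log2 scale (standard error 0.07, edgeR adjusted p = 1.4e-15). The others that rose (CDH1, GATA3, KRT8, KRT18 and FOXA1) had mean counts of 9.33 to 40.3. Of these, CDH1, GATA3, KRT8 and KRT18 passed the low-count filter only through the DOX-treated libraries, so their number is not evidence of change in the list. KRT8, a keratin of simple epithelia, went from 0, 2 and 4 counts to 78, 108 and 50. KRT8 and its partner KRT18 were highest in these DOX-treated libraries (means of 1.34 and 0.887 CPM) and at most 0.581 and 0.480 CPM in any other library. The defining markers KRT19 and EPCAM had at most 2 counts in these libraries. In the other groups the luminal sum, again mostly KRT7, was 54.1 to 61.2 CPM in 3D cells, 67.9 to 76.3 with GO-203 and 30.5 to 40.0 in DOX-treated tet-MYCshRNA mammospheres. The part of these markers in the MUCL1 result was not tested.

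On MYC silencing, where MUCL1 rose less, the luminal markers were higher with DOX than with vehicle (7.89 to 10.5 CPM), and SCGB2A2 was at 0 in all 6 libraries. The sum of 6 basal markers, of which KRT5 and KRT6A take most in the mammospheres, was higher in both silenced groups, at 23.9 to 28.2 CPM against 0.905 to 1.91 on MUC1 silencing and at 56.3 to 74.7 against 4.03 to 7.04 on MYC silencing. It was 23.6 to 27.1 CPM in 3D cells and 98.1 to 105.5 with GO-203, where MUCL1 had no count. KRT5 averaged 24.3 CPM in 3D cells, 95.2 with GO-203, 15.2 in the MUC1-silenced and 66.0 in the MYC-silenced group, whereas KRT6A averaged 1.09, 7.40, 10.4 and 1.42 CPM in the same order. Goblet cell markers, which would accompany gel-forming mucins, summed to at most 0.354 CPM in any library, and none was tested. Leukocyte and endothelial markers summed to 1.30 to 10.4 CPM, of which PECAM1 took most in mammospheres and PTPRC most in 2D cells. The mesenchymal markers VIM, FN1, SPARC, CDH2, TWIST1 and ZEB1 did not move as one. On MUC1 silencing 4 of the 6 fell and 2 rose (VIM and CDH2, the latter by 2.67 on the log2 scale, edgeR adjusted p = 4.7e-18), and on MYC silencing 5 rose and 1 fell. Their sum, mostly FN1 in mammospheres, was 8649 to 9011 CPM with DOX and 11936 to 12992 with vehicle in the tet-MUC1shRNA line, and 14523 to 16267 against 8118 to 8405 CPM in the tet-MYCshRNA line. In 2D cells SPARC took most of the sum (6269 to 6910 CPM). For the receptors that define TNBC, PGR had at most 4 counts and ESR1 0 to 86, whereas ERBB2 was counted at 18.4 to 42.0 CPM.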

How the data were processed

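Total RNA of 21 BT-549 cultures (3 in each of 7 groups) was sequenced from stranded mRNA libraries with paired ends. The authors mapped reads to GRCh38 by STAR, counted them per gene with featureCounts and deposited these raw counts. The submitters' processing notes name CASAVA 1.8.2 and STAR 2.7.3a. The annotation release, strand setting and handling of multiply mapped reads are not given in the sources used here. Cells without a value, which occur for whole blocks of libraries, were read as 0. Of the rows, 87 had no symbol, and 0 per-sample columns were left unmapped.

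Members, gene lists and comparisons were chosen with earlier results of these data known. In R 4.3.3, each pair of groups was fitted on its own 6 libraries with edgeR 4.0.16: filterByExpr, TMM factors and the quasi-likelihood test, with Benjamini-Hochberg adjustment over all genes tested and a threshold of 0.1. The biological coefficient of variation was between 0.0637 and 0.127. A log2 fold change is that of the first-named group over the second, or of DOX over vehicle, and its standard error was derived from the F statistic. All 21 pairs of replicate libraries differed beyond sampling noise (chi-square per degree of freedom 4.36 to 52.8). No batch, date or lane is labelled.

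CPM values were scaled with TMM factors over 21 libraries. Lengths, positions and overlaps are from GENCODE 44, and promoters from RefSeq (GRCh38.p14). Pearson's r used log2(CPM + 1). Besides the members, the genes named are the nearest protein-coding neighbours, up to 2 rises and 2 falls per list and comparison (mean count of at least 100, groups apart), the 5 genes closest in pattern to MUC1 and MUCL1, and markers by level. GALNT14, GALNT12, CDH1, MUC15, SCGB2A2, SCGB1D2, LTF, KRT8, KRT18 and B3GNT3 have lower counts and, like GALNT1, ADAM10 and the remaining values of KLF4, were named after their values were seen. The summed level of 1 marker list is not reported here. Alternatives were DESeq2 1.42.0, RLE factors, library size alone, filters of at least 1 count in a comparison or of at least 10 counts in each library, 1 fit of all 21 libraries, a replicate block, an adjusted p below 0.05, an absolute log2 fold change above 1.5, and leaving out each library. Scripts were tested on simulated data.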

Additional observations from a re-analysis of the deposited data

Results flagged for a closer look

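For 15 of the 55 genes tested in both shRNA lines among the members and the mucin, glycosylation, partner and regulator lists (27.3%), DOX was associated with opposite directions in the tet-MUC1shRNA and tet-MYCshRNA lines, with all 3 DOX libraries on one side of the vehicle libraries in each line. Of all 18198 genes tested in both, 19.0% did so. The 15 include MUC1, whose fall on MUC1 silencing is that of the shRNA target. They also include HEG1 and CD164, whose direction on MUC1 silencing depends on the scaling. These shares are therefore not read as a difference between the lists and all genes. The difference between the lines was not tested. MUC1 itself, the shRNA target in the first line, had log2 fold changes of -2.06 on MUC1 silencing and 1.25 on MYC silencing. The same directions were found for CREB3L1 (-3.20 and 1.11), LGALS3 (-1.43 and 0.98), GALNT16 (-1.01 and 0.68), ST6GALNAC3 (-0.53 and 1.99), GALNT12 (-1.56 and 2.01), ADAM10 (-0.26 and 0.24), HEG1 (-0.12 and 0.90) and CD164 (-0.085 and 0.59). The opposite directions were found for MMP14 (1.21 on MUC1 silencing and -0.57 on MYC silencing), GALNT7 (0.86 and -0.58), PODXL (0.59 and -0.62), MET (0.56 and -0.53), ST6GALNAC4 (0.45 and -0.92) and GALNT1 (0.32 and -0.62). The changes of HEG1 and CD164 on MUC1 silencing depend on the scaling. They also did not pass edgeR's test without replicate 3 of the vehicle group (-0.088 for HEG1 and -0.061 for CD164) or replicate 2 of the DOX group (-0.098 and -0.085), nor did that of CD164 without replicate 2 of the vehicle group (-0.086) or replicate 1 or 3 of the DOX group (-0.089 and -0.064).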

How the results depend on the processing

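In the count that follows, members on MUC1 silencing carry no test and were taken by direction alone. DESeq2 fits with no adjusted p, where the main fit had passed, were left out. So were the changes of MET 3D vs. 2D and in the vehicle-treated lines vs. 3D cells. Counting the other log2 fold changes given for a gene under each alternative, 1332 kept their direction and, where tested, their side of the threshold. Another 71 kept their direction but no longer passed, 1 newly passed (ITGB5 on MYC silencing) and 6 changed direction. The latter were CD164 (0.082) and HEG1 (0.047) on MUC1 silencing with library size alone, KLF4 with GO-203, which had not passed, with all 21 libraries in 1 fit (-0.0108) and without replicate 3 of either group (-0.0238 to 0.058 over all libraries left out), and MUC15 on MUC1 silencing, which had not passed either, without replicate 3 of the vehicle group (-0.067 to 0.797 over all libraries left out). Scaling by library size alone shifted the middle of the 19220 genes tested on MUC1 silencing from a median of 0.02 to 0.19 (log2), so CD164 and HEG1 lay below the median. MUC1 kept its direction under every alternative run, at 1.87 to 2.03 3D vs. 2D, 0.24 to 0.39 with GO-203 and 1.13 to 1.37 on MYC silencing. When each library had to hold at least 10 counts, 1 member was left past the test 3D vs. 2D, on MYC silencing, in vehicle-treated tet-MUC1shRNA and in vehicle-treated tet-MYCshRNA mammospheres vs. 3D cells, and 1 had groups apart on MUC1 silencing. In each case this was MUC1, because the other members did not pass that filter. With the at-least-1-count filter, 2 members passed with GO-203 (MUC12 added, lower), 4 in tet-MUC1shRNA with vehicle vs. 3D (MUC13 and MUCL1 added, higher) and 4 in tet-MYCshRNA with vehicle vs. 3D (MUC12 and MUC5B added, lower). With an absolute log2 fold change above 1.5, 0 members passed with GO-203 and 0 in tet-MUC1shRNA with vehicle vs. 3D, and MUC1 (1.25) no longer passed on MYC silencing. Leaving out each library gave 2 to 4 members in tet-MUC1shRNA with vehicle vs. 3D, with 4 without replicate 1 or replicate 2 of the 3D cells. The difference of MUC5B in that comparison did not pass with all 21 libraries in 1 fit (adjusted p = 0.109).

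In no comparison was the correlation of deviations above 0.1 in all 3 same-numbered pairs (mean correlations -0.22 to 0.14; with GO-203 0.21, 0.043 and 0.17), so the numbers were not taken as a pairing. With the replicate block the number of members past the test was unchanged: 2 3D vs. 2D, 1 with GO-203 and 3 on MYC silencing. Counts of a few read pairs limit what can be said of MUC3A, MUC5AC, MUC12 and MUC20.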

Other observations

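B3GNT3, which extends core 1 O-glycans, had 6, 14 and 18 counts in DOX-treated tet-MUC1shRNA mammospheres and 0 in those with vehicle. Of the other 15 libraries, 1 GO-203 library had 2 counts and the rest had 0. MUC17, a membrane-bound mucin beside MUC12 on chromosome 7, had at most 8 counts in any library.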
